A study of Mus musculus with 8 samples.

Results

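The genes described here act in G2 and mitosis, and 51 of them were taken by name from the 12843 genes of the deposited table. All 51 passed the filter on low values, a mean of at least 1 RPKM in either genotype (reads scaled by the length of the gene and the size of the library). RNA was sequenced from the lateral ganglionic eminence (LGE), the ventral forebrain region that forms the striatum and olfactory bulb interneurons, of mouse embryos at E12.5 (embryonic day). The Gsx2 null group held 4 libraries of genotype Gsx2EGFP/Gsx2RA, which combines the alleles Gsx2EGFP and Gsx2RA and which the series calls null. The wild-type group held 4 libraries of mice labelled wild type, from the same kind of cross of Gsx2RA/+ with Gsx2EGFP/+ parents. Gsx2 is a homeobox transcription factor of LGE progenitors, and the mutation is in the germline, so every cell of a null embryo carries it. The study asked how the LGE transcriptome differs when Gsx2 is lost, and the G2 and mitosis genes are read here within that comparison. Whether each library is a single embryo or a pool is not in the labels, and p-values therefore cover the spread between these 8 libraries, which may be technical.

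A dividing progenitor copies its DNA in S phase, and in G2 it builds up cyclin B with the kinase CDK1, whose activation drives entry into mitosis. Chromosomes condense, kinetochores attach them to the spindle, the anaphase-promoting complex destroys cyclin B and securin once all are attached, and cytokinesis then parts the daughter cells. At midgestation the LGE holds dividing radial glia at the ventricle and dividing intermediate progenitors beneath them, beside young neurons that have left the cycle, so RNAs of this kind mark the dividing cells. In bulk RNA, fewer dividing cells and less of these RNAs in each dividing cell cannot be told apart.

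Each library held between 16031458 and 18019214 reads in listed genes, with 16066546 to 18019214 in null and 16031458 to 17512888 in wild-type libraries. Gsx2 RNA was 50.04, 49.1, 57.6 and 64.2 RPKM in null libraries 5, 6, 11 and 12, against 22.1, 21.4, 26.0 and 24.6 RPKM in wild-type libraries 1, 2, 7 and 8. It was higher in every null library, so its level does not check the null label. The numbers are the columns' own and stand in no label. Of 9 LGE markers 8 fell and 1, Gsx2, rose (limma, adjusted p under 0.05), against 14.6% and 13.8% of all genes tested. Their summed level was 206 to 271 RPKM in null and 652 to 789 RPKM in wild-type libraries, and no LGE marker was at 0 in every library. Null library 5 stood lowest of all 8 libraries in 46 of the 51 G2 and mitosis genes. The share of all genes in which it stood lowest was not counted. Over all genes tested the median ratio of library 5 to the mean library was 0.958, where the other libraries had 0.975 to 1.04. Wild-type library 7 stood apart in markers of the neighbouring pallium: Eomes was 82.9, 95.99, 80.7 and 73.98 RPKM in the null libraries and 19.7, 16.1, 2.64 and 18.6 RPKM in the wild-type libraries. Without library 5, 45 of the 51 genes fell with a median log2 fold change of -0.34, and 2622 of all genes tested passed in either direction. Without library 7, 44 of the 51 fell with a median of -0.36, and 2471 of all genes tested passed. With all 8 libraries 3242 passed.

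Many promoters of G2 and mitosis genes hold a hexamer called the CHR (cell cycle genes homology region), which MuvB complexes bind through LIN54, and CCAAT boxes, which NF-Y binds. Stretches of 120 bases that end just before the annotated start site are printed here for 8 of the genes, in RefSeq's GRCm38.p6 build and 5' to 3' on the gene's strand. Capitals mark the CHR hexamers TTTGAA and TTCGAA and the box CCAAT on either strand, so that TTTGAA on the other strand reads TTCAAA and CCAAT reads ATTGG. Top2a at chr11:99024190-99024309 (minus strand), Cdk1 at chr10:69352913-69353032 (minus strand), Kif11 at chr19:37376262-37376381 (plus strand), Cdc20 at chr4:118437344-118437463 (minus strand) and Mki67 at chr7:135716380-135716499 (minus strand) are shown as genes that fell and hold a hexamer. Nek2 at chr1:191821353-191821472 (plus strand) is shown as a gene that fell with no hexamer in these bases. Cks2, without a hexamer, at chr13:51645112-51645231 (plus strand) and Hmgb2, with a hexamer, at chr8:57511723-57511842 (plus strand) are shown as genes that did not pass the test.
Top2a: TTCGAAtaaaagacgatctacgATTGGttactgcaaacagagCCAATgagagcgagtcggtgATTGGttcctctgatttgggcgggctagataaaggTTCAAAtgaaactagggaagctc
Cdk1: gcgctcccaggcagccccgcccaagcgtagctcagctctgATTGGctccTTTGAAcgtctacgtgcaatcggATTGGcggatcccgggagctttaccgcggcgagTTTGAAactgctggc
Kif11: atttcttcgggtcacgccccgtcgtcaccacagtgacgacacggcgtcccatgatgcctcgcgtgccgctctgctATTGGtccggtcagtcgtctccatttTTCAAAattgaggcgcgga
Cdc20: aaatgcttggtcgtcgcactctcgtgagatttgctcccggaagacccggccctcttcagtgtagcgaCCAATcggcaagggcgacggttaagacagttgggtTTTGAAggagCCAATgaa
Mki67: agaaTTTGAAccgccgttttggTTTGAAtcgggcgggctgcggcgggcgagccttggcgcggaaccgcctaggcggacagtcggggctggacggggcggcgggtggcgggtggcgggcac
Nek2: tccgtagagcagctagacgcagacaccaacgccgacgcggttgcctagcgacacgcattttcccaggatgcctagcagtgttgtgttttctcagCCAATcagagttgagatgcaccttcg
Cks2: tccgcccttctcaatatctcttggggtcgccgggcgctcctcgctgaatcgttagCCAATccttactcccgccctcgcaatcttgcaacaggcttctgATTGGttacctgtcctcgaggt
Hmgb2: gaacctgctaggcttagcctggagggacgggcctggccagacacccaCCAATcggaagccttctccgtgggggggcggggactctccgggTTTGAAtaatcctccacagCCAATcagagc
In Top2a, Cdk1, Kif11, Cdc20 and Hmgb2 the hexamer nearest the start site began 23, 15, 19, 18 and 30 bases before it; in Mki67 the nearer one began 98 bases before it.

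RNA of most G2 and mitosis genes was lower in the null LGE. Of the 51 genes, 47 fell, none rose and 4 did not pass (limma, adjusted p under 0.05), while 14.6% of the 11395 genes tested fell and 13.8% rose. No gene of the list was higher at an unadjusted p under 0.05 either, and limma voom and the authors' deposited table also gave 47 that fell and none that rose. The median log2 fold change (null minus wild type, on the scale of log2(RPKM + 1)) was -0.38, against -0.01 over all genes tested. In RPKM the null mean was lower by a median of 23.3% (range 4.93% to 32.4%). All 4 null libraries lay below all 4 wild-type libraries in 46 of the 51 genes, against 16.4% of all genes tested. The sum over the 51 genes was 1781, 1924, 2060.4 and 2001 RPKM in null libraries 5, 6, 11 and 12, against 2581, 2395, 2614 and 2465 RPKM in wild-type libraries 1, 2, 7 and 8. As a share of reads in listed genes this was 0.931%, 0.999%, 1.01% and 0.971% in null and 1.27%, 1.23%, 1.33% and 1.26% in wild-type libraries.

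**Figure D1:**
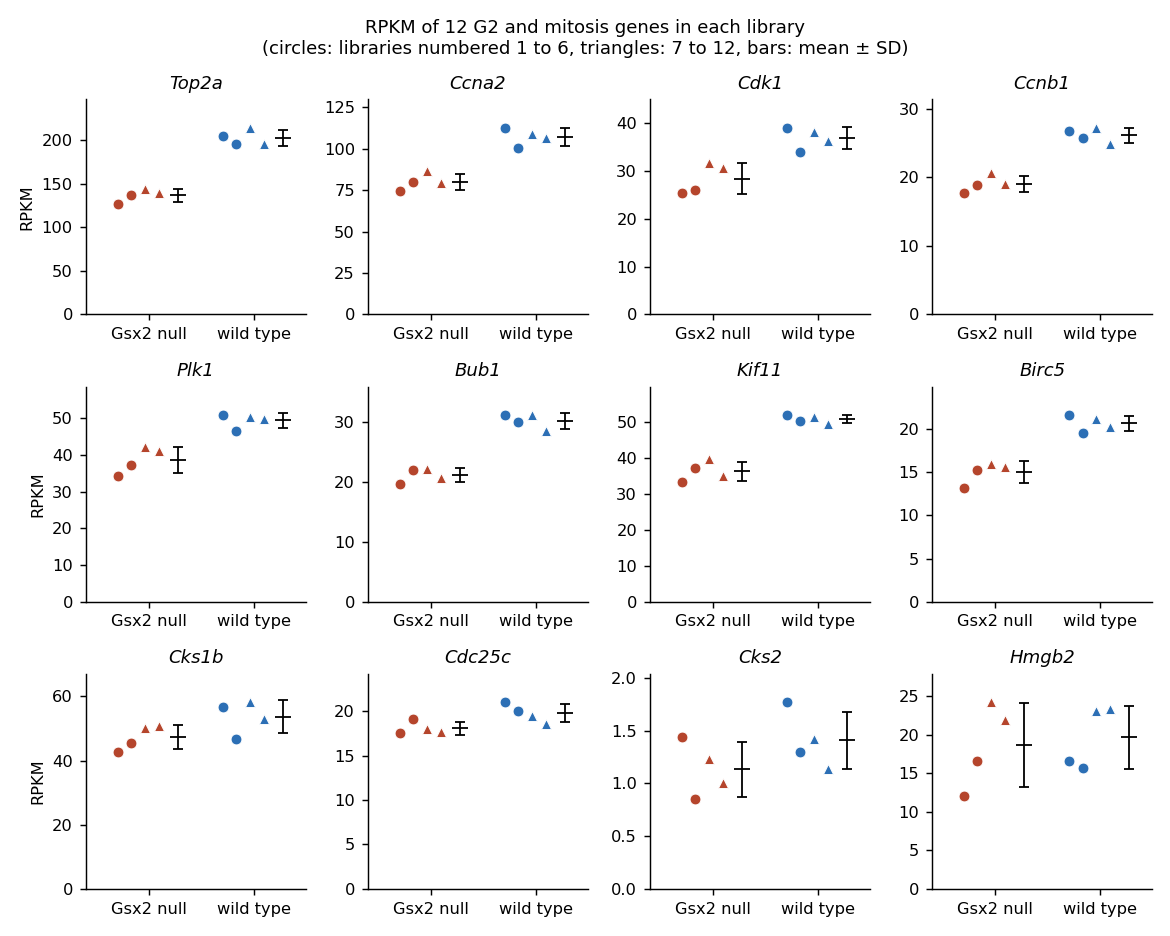
RPKM (linear axis from 0) of 12 G2 and mitosis genes in each library, null at the left in red and wild type at the right in blue, with circles for libraries numbered 1 to 6, triangles for 7 to 12, and bars for mean ± SD (n = 4 each). The null libraries of Top2a (126 to 144 RPKM) lie below the wild-type libraries (195 to 214 RPKM), as in the other genes of the upper 2 rows, while the genotypes overlap in Cks1b, Cdc25c, Cks2 and Hmgb2.

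The log2 fold change was below -0.4 in 21 of the 51 genes, between -0.4 and -0.3 in 17, and nearer 0 than -0.3 in 13, the 4 genes that did not pass among them. Mean level per length over the 8 libraries spanned 1.27 RPKM (Cks2) to 169 RPKM (Top2a) with a median of 32.6 RPKM, against 10.4 RPKM for all genes tested. The size of the change was unrelated in rank to that level across the 51 genes (Spearman's rho -0.0042, a description, since genes of 1 library are not independent). The median coefficient of variation between libraries was 6.43% in null and 5.24% in wild type. Below, values are given for null libraries 5, 6, 11 and 12 and then for wild-type libraries 1, 2, 7 and 8, and fold changes carry their standard error (SE).

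**Figure D2:**
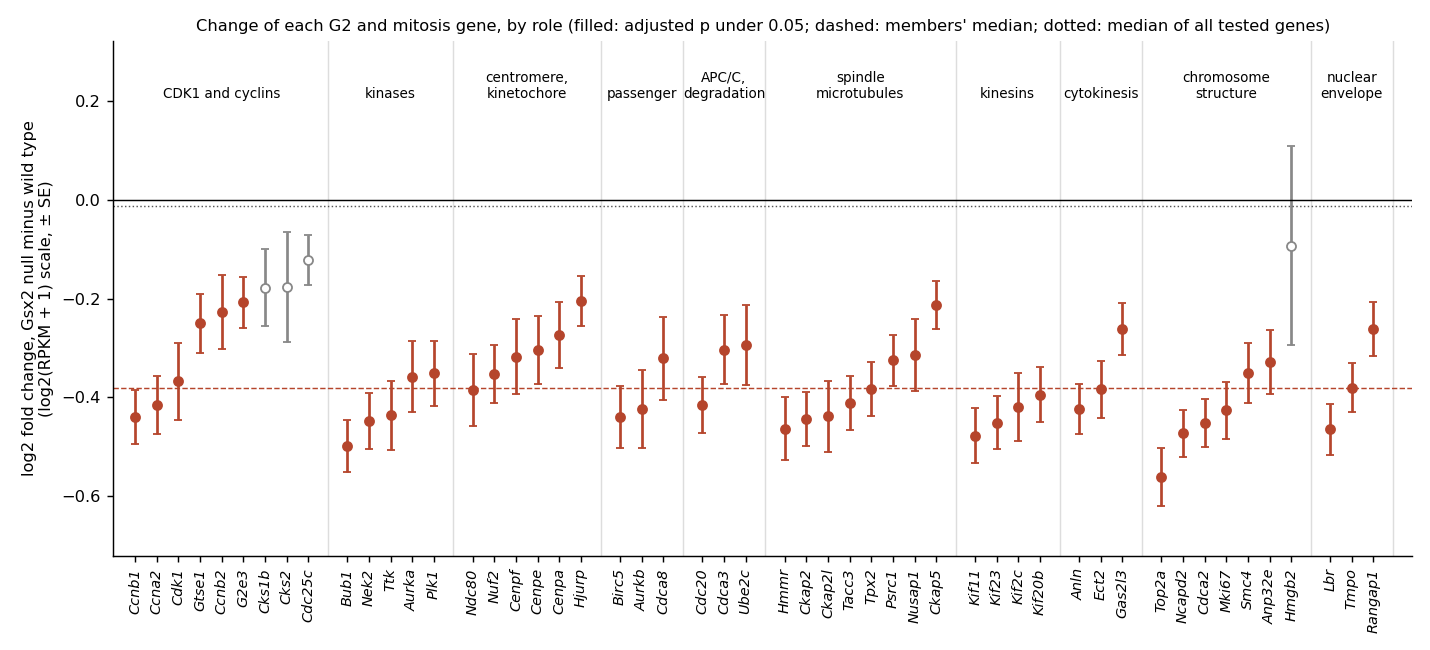
Log2 fold change of each of the 51 genes (null minus wild type, on the log2(RPKM + 1) scale, with SE), by role, filled where the adjusted p was under 0.05, with a dashed line at the median of the 51 genes and a dotted line at that of all tested genes. The points run from -0.56 for Top2a to -0.09 for Hmgb2, and the 4 open points are Cks1b, Cks2, Cdc25c and Hmgb2.

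CDK1, its cyclins and their regulators had the smallest median change of the roles: 6 of 9 fell, with a median log2 fold change of -0.23. Cdk1, the kinase that starts mitosis, was 25.3, 26.0, 31.5 and 30.7 RPKM in null and 39.0, 33.8, 38.0 and 36.2 RPKM in wild-type libraries. The genotypes did not overlap, and null libraries 5 and 6 were the lowest; the log2 fold change was -0.37 ± 0.08 (adjusted p = 0.00635). Ccna2, cyclin A2 of S phase and G2, was 74.4, 80.04, 86.5 and 79.0 RPKM in null and 113, 100.1, 109 and 106 RPKM in wild-type libraries, a change of -0.42 ± 0.06 (adjusted p = 0.000686). Ccnb1, the main mitotic cyclin, was 17.6, 18.8, 20.6 and 19.0 RPKM in null and 26.7, 25.7, 27.2 and 24.8 RPKM in wild-type libraries. That was -0.44 ± 0.05 (adjusted p = 0.000347) with no overlap; 51.95% of its transcript is shared with the gene models Ccnb1-ps and Gm12856 at 98% identity or more, so its reads are uncertain. Ccnb2, cyclin B2, was nearest the threshold of the genes that fell, at 37.7 ± 3.27 RPKM in null and 44.3 ± 3.73 RPKM in wild type (SD, n = 4 each; -0.23 ± 0.07, limma adjusted p = 0.0442). Its call was lost without any 1 of libraries 1, 5, 6, 7, 8 and 12 (adjusted p 0.0612 to 0.110). Gtse1, a G2 and S phase expressed regulator of microtubules and p53, and G2e3, a ubiquitin ligase of G2, fell by 0.25 and 0.21 on the log2 scale.

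Cks1b, Cks2 and Cdc25c, of the 4 genes that did not pass, belong to this group. Cks1b encodes a small subunit that binds CDKs; it was 42.8, 45.6, 50.2 and 50.7 RPKM in null and 56.8, 46.9, 58.3 and 53.0 RPKM in wild-type libraries (-0.18 ± 0.08, adjusted p = 0.121). Wild-type library 2 lay within the null range, and without it Cks1b passed (-0.24, adjusted p = 0.0365). Its relative Cks2 was 1.44, 0.852, 1.23 and 1.01 RPKM in null and 1.77, 1.29, 1.42 and 1.14 RPKM in wild-type libraries (-0.18 ± 0.11, adjusted p = 0.273), with a median of 20 reads per library. The size of this change depends on the pseudocount: it was -0.30 with 0.1 and -0.06 with 5, and the authors' deposited table gives -0.30, with no call in any of them. In addition, 34.7% of the Cks2 transcript is shared with the gene models Gm12891, Gm15452 and Gm19945. Cdc25c, a phosphatase that activates CDK1, was 17.6, 19.1, 18.0 and 17.6 RPKM in null and 21.0, 20.1, 19.4 and 18.6 RPKM in wild-type libraries (-0.12 ± 0.05, adjusted p = 0.0984). Null library 6 lay above wild-type library 8.

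All 5 mitotic kinase genes fell, with a median of -0.44. Bub1, a kinase of the spindle checkpoint, was 19.7, 21.9, 22.1 and 20.6 RPKM in null and 31.1, 30.1, 31.2 and 28.4 RPKM in wild-type libraries. Its 2 sets of libraries lay well apart, and its change of -0.50 ± 0.05 (adjusted p = 0.000137) was exceeded in the list by that of Top2a alone. Plk1, the polo-like kinase of mitotic entry and spindle assembly, was 34.4, 37.2, 42.0 and 41.0 RPKM in null and 50.9, 46.6, 50.5 and 49.8 RPKM in wild-type libraries (-0.35 ± 0.07, adjusted p = 0.00334). Nek2, a kinase of centrosome separation, Ttk (MPS1), a checkpoint kinase, and Aurka, the spindle pole Aurora kinase, fell by 0.45, 0.44 and 0.36 on the log2 scale.

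The 6 centromere and kinetochore genes fell with a median of -0.31. Ndc80, the microtubule-binding subunit of the kinetochore, was 15.6, 16.7, 19.9 and 17.1 RPKM in null and 24.2, 21.0, 23.3 and 22.8 RPKM in wild-type libraries (-0.38 ± 0.07, adjusted p = 0.00348), and its partner Nuf2 fell by 0.35 on the log2 scale. Cenpa, the histone H3 variant of centromeres, was 42.9, 44.3, 47.9 and 46.2 RPKM in null and 60.9, 49.3, 56.5 and 53.7 RPKM in wild-type libraries (-0.27 ± 0.07, adjusted p = 0.0122). Hjurp, the chaperone that loads CENP-A, had the smallest change among the 47 genes that fell: 21.4, 22.9, 21.3 and 21.3 RPKM in null and 24.6, 23.7, 27.0 and 25.6 RPKM in wild-type libraries (-0.20 ± 0.05, adjusted p = 0.0129). The genotypes were apart for each of these genes. The motor Cenpe and the large kinetochore protein Cenpf fell by 0.30 and 0.32 on the log2 scale.

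All 3 genes of the chromosomal passenger complex, which corrects attachments, fell (median -0.42). Birc5 (survivin) was 13.1, 15.3, 15.9 and 15.6 RPKM in null and 21.7, 19.6, 21.1 and 20.3 RPKM in wild-type libraries (-0.44 ± 0.06, adjusted p = 0.000762). Cdca8 (borealin) was 52.3, 59.7, 66.2 and 66.7 RPKM in null and 79.7, 68.7, 81.4 and 76.5 RPKM in wild-type libraries (-0.32 ± 0.08, adjusted p = 0.017), and its adjusted p was 0.0509 without library 7. Both had null library 5 lowest and no overlap, and Aurkb, the kinase of the complex, fell by 0.42 on the log2 scale.

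The 3 genes of protein degradation in mitosis fell with a median of -0.30. Cdc20, the activator of the anaphase-promoting complex, was 46.4, 51.0, 52.6 and 54.6 RPKM in null and 71.7, 66.4, 69.4 and 66.5 RPKM in wild-type libraries (-0.42 ± 0.06, adjusted p = 0.000592). Ube2c, the ubiquitin-conjugating enzyme of that complex, was 101, 105, 117 and 127 RPKM in null and 142, 124, 147 and 139 RPKM in wild-type libraries. Null library 12 lay above wild-type library 2, the single overlap among the genes that fell (-0.29 ± 0.08, adjusted p = 0.0217), and the call was lost without any 1 of libraries 1, 5, 6, 7 and 8 (adjusted p 0.0516 to 0.0645). Ube2c lies across from Tnnc2, with which 27.8% of its transcript overlaps on the opposite strand, and it is not stated whether reads were counted by strand. In total, 13 of the 51 genes overlap a gene on the opposite strand. In 5 of them (Cdc25c, Cdca8, Nusap1, Rangap1 and Tmpo) no stretch of at least 51 bases was shared between transcripts, while Ccna2 shares 17.3% of its transcript with Exosc9 and Lbr 12.54% with Dnah14, where reads could have been counted for either gene if strand was not used. Cdca3, a trigger of mitotic entry, fell by 0.30 on the log2 scale.

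All 8 spindle microtubule genes fell (median -0.40). Hmmr, a spindle assembly factor, was 15.5, 15.8, 17.1 and 16.2 RPKM in null and 25.0, 22.9, 22.5 and 20.3 RPKM in wild-type libraries (-0.46 ± 0.06, adjusted p = 0.000564). At the other end Ckap5, a microtubule polymerase that is also used outside mitosis, was 72.9, 77.2, 80.00 and 74.4 RPKM in null and 91.0, 90.9, 87.6 and 84.1 RPKM in wild-type libraries (-0.21 ± 0.05, adjusted p = 0.00914). Both sets of libraries were apart. Ckap2, Ckap2l, Tacc3, Tpx2, Psrc1 and Nusap1, which nucleate, bundle or stabilise spindle microtubules, fell by 0.44, 0.44, 0.41, 0.38, 0.32 and 0.31 on the log2 scale.

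The 4 kinesin genes fell with a median of -0.44. Kif11, the motor that pushes spindle poles apart, was 33.3, 37.1, 39.6 and 35.0 RPKM in null and 52.0, 50.2, 51.4 and 49.5 RPKM in wild-type libraries (-0.48 ± 0.06, adjusted p = 0.000245). Kif20b, a motor of late cytokinesis, was 9.7, 10.8, 11.3 and 10.3 RPKM in null and 13.6, 14.3, 15.0 and 13.6 RPKM in wild-type libraries (-0.39 ± 0.06, adjusted p = 0.000699). No null library reached the lowest wild-type library in either gene. Kif23, of the central spindle, and Kif2c, a microtubule depolymerase, fell by 0.45 and 0.42 on the log2 scale.

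All 3 cytokinesis genes fell (median -0.38). Anln, the scaffold anillin of the contractile ring, was 11.8, 11.98, 13.5 and 13.1 RPKM in null and 17.6, 17.1, 17.2 and 16.8 RPKM in wild-type libraries (-0.42 ± 0.05, adjusted p = 0.000297). Ect2, the exchange factor that activates RhoA at the cleavage plane, was 27.5, 30.8, 32.9 and 30.7 RPKM in null and 40.8, 39.8, 41.4 and 37.9 RPKM in wild-type libraries (-0.38 ± 0.06, adjusted p = 0.001). Gas2l3, which links actin and microtubules, was 5.57, 6.11, 5.78 and 5.48 RPKM in null and 6.94, 6.80, 7.52 and 7.03 RPKM in wild-type libraries (-0.26 ± 0.05, adjusted p = 0.00478). The groups were apart in each.

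Of 7 genes of chromosome structure and chromatin, 6 fell (median -0.43). Top2a, the topoisomerase that untangles sister chromatids, had both the highest level and the largest fall of the list: 126, 137, 144 and 139.8 RPKM in null and 204, 195, 214 and 195 RPKM in wild-type libraries (137 ± 7.66 against 202 ± 9.27 RPKM, SD; -0.56 ± 0.06, limma adjusted p = 0.00013). Mki67, which coats mitotic chromosomes, was 60.2, 68.7, 68.8 and 61.4 RPKM in null and 89.1, 83.7, 89.9 and 86.5 RPKM in wild-type libraries (-0.43 ± 0.06, adjusted p = 0.000545). The gap between genotypes was wider than the range within either for both genes. The condensin subunits Ncapd2 and Smc4 fell by 0.47 and 0.35, Cdca2 (Repo-Man), a phosphatase subunit on anaphase chromatin, by 0.45, and Anp32e, a chaperone for the histone H2A.Z, by 0.33 on the log2 scale. Hmgb2, a DNA-bending chromatin protein, was the exception: 12.1, 16.6, 24.2 and 21.9 RPKM in null and 16.6, 15.7, 23.1 and 23.3 RPKM in wild-type libraries (-0.09 ± 0.20, adjusted p = 0.771). Its values split by library number in both genotypes rather than by genotype, and 24.1% of its transcript is shared with the gene models Gm13167, Gm13232, Gm13237 and Gm4739.

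All 3 genes of the nuclear envelope and transport fell (median -0.38). Lbr, the lamin B receptor, was 25.7, 26.3, 27.4 and 26.4 RPKM in null and 36.8, 35.1, 40.3 and 35.6 RPKM in wild-type libraries (-0.46 ± 0.05, adjusted p = 0.000191). Tmpo, a lamina-associated protein, was 71.4, 77.3, 80.3 and 78.6 RPKM in null and 101, 98.1, 104 and 98.03 RPKM in wild-type libraries (-0.38 ± 0.05, adjusted p = 0.000475). Rangap1, the GTPase activator for Ran, was 67.6, 67.2, 73.8 and 75.6 RPKM in null and 86.2, 82.0, 89.3 and 83.8 RPKM in wild-type libraries (-0.26 ± 0.05, adjusted p = 0.00544). The genotypes were apart in all 3 genes.

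The libraries were also read in sets by number, 1 to 6 and 7 to 12, a cut that stands in no label. It was chosen because earlier results of these data had null libraries 5 and 6 apart from 11 and 12. The p-values for differences between the sets therefore belong to a split taken from the same data. The sets are parts of the same 8 libraries and not a replication. The fall was seen in both sets. Among libraries 5 and 6 against 1 and 2, 39 of the 51 genes fell with a median of -0.44, where 10.4% of genes tested fell and 6.57% rose. Among libraries 11 and 12 against 7 and 8, 45 fell with a median of -0.31, where 9.26% fell and 16.9% rose. All 51 genes had a lower null mean in each set. The fall was larger in the lower-numbered set in 43 of the 51 genes, but the change was likewise lower there in 74.8% of the 11250 genes tested in both sets. The difference between the sets (higher-numbered minus lower-numbered) had a median of 0.11 on the log2 scale both over the 51 genes and over all genes, and 25 of the 51 lay above the median of all genes, a comparison added after the values were seen. The difference between the sets was tested as an interaction in limma: none of the 51 passed after adjustment and 5 had an unadjusted p under 0.05 (0.0176% and 19.1% of all genes tested). Those 5, named after their values were seen, were Nusap1, Hmmr, Cdk1, Cenpe and Anln; Nusap1 had log2 fold changes of -0.45 and -0.18 in the lower- and higher-numbered sets (unadjusted p = 0.0318, adjusted p = 0.226), and Cenpe, the other way, of -0.19 and -0.42.

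**Figure D3:**
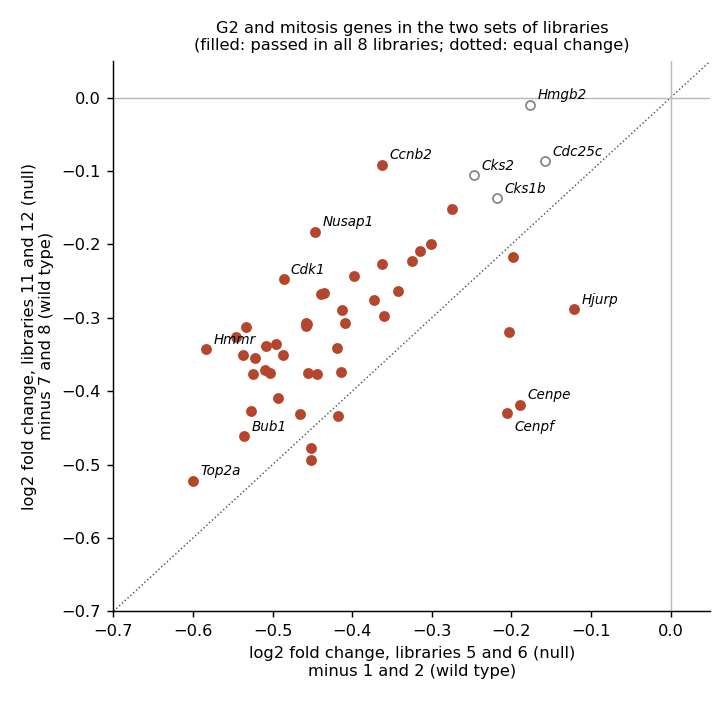
Log2 fold change (null minus wild type) of each of the 51 genes in libraries 11 and 12 against 7 and 8 (vertical axis) over that in libraries 5 and 6 against 1 and 2 (horizontal axis), filled where the gene passed in all 8 libraries, with a dotted line of equal change. All 51 points are below 0 on both axes; 43 have the larger fall in the lower-numbered libraries, where 74.8% of all genes tested in both sets also have the lower change.

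Within the null group, libraries 11 and 12 were higher than 5 and 6 in 45 of the 51 genes, with a median difference of 0.11 (log2); over all genes tested 68.7% were higher there, with a median of 0.07. Cdk1, Nusap1, Ube2c and Hmgb2 passed, all higher in 11 and 12 (limma adjusted p = 0.0278, 0.043, 0.039 and 0.0356), while 8.59% of all genes tested were called higher and 0.904% lower (9.5% in all), so 4 of 51 is near that background. Since this split came from earlier results of these data, these p-values are a description only. Within the wild-type group, libraries 7 and 8 were higher than 1 and 2 in 29 genes, with a median of 0.02; none passed and 3 had an unadjusted p under 0.05 (limma), against 0.0351% and 9.34% of all genes tested, of which 36.9% were higher with a median of -0.04. Per library, the median deviation from the wild-type mean over the 51 genes was -0.51, -0.38, -0.28 and -0.34 in null libraries 5, 6, 11 and 12, and 0.04, -0.05, 0.05 and -0.04 in wild-type libraries 1, 2, 7 and 8 (log2). Library 5 was the lowest for genes of S phase and replication too, with -0.47, -0.37, -0.29 and -0.28 in null libraries.

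Further cell cycle genes were read from lists written by function. The shares to set beside their counts are the 14.6% of all genes tested that fell and the 13.8% that rose. Of 104 tested genes of mitosis outside the 51, 78 fell, 26 did not pass and none rose, with a median of -0.32. None rose at an unadjusted p under 0.05 or in limma voom, and 81 were lower at that p. Kif20a, a motor of the central spindle, was 21.0, 21.3, 23.0 and 23.8 RPKM in null and 33.9, 30.8, 34.0 and 32.1 RPKM in wild-type libraries (-0.54 ± 0.05, adjusted p = 0.000116). Espl1, separase, which cuts cohesin at anaphase, changed by -0.53 ± 0.05 (adjusted p = 0.000105), and Spag5, a spindle and kinetochore protein, by -0.49 ± 0.05 (adjusted p = 9.8e-05).

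Of 65 tested genes of S phase and DNA replication, 58 fell and none rose (none at an unadjusted p under 0.05 or in limma voom), with a median of -0.35. Cdt1, which licenses replication origins, was 15.8, 17.3, 17.5 and 18.6 RPKM in null and 25.6, 24.2, 25.9 and 25.3 RPKM in wild-type libraries (-0.52 ± 0.05, adjusted p = 0.000114). Clspn, of the replication checkpoint, and Mcm10, of origin firing, fell by 0.49 and 0.46 on the log2 scale. Whether the G2 and mitosis genes changed more than the S phase genes was not tested. Of 14 G1 cyclins, kinases and CDK inhibitors, 4 fell and 2 rose (median -0.09), against 14.6% and 13.8% of all genes tested. The 2 of 14 that rose are near that share. Ccnd2 (cyclin D2), Cdk2 and the pocket protein gene Rbl1 were among those that fell. The CDK inhibitor Cdkn1c (p57) rose to 65.3, 60.1, 61.4 and 72.0 RPKM in null, against 26.3, 21.4, 15.2 and 20.3 RPKM in wild-type libraries (1.61 ± 0.13, adjusted p = 3.11e-05), and Cdkn1a (p21) rose by 0.33 on the log2 scale.

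Of 24 regulators of the transcription of mitotic genes, 14 fell and none rose (none at an unadjusted p under 0.05 or in limma voom), with a median of -0.24. Foxm1, a forkhead activator of G2 genes, was 27.9, 29.1, 28.2 and 28.5 RPKM in null and 39.4, 37.7, 39.1 and 38.5 RPKM in wild-type libraries (-0.43 ± 0.04, adjusted p = 5.42e-05). Mybl2 (B-MYB), which joins the MuvB complex, was 7.23 ± 0.379 RPKM in null and 10.7 ± 0.767 RPKM in wild type (SD, n = 4 each; -0.51 ± 0.06, limma adjusted p = 0.000246). E2f2, an E2F activator, was 4.19, 4.52, 4.70 and 4.65 RPKM in null and 9.06, 8.19, 10.9 and 9.97 RPKM in wild-type libraries (-0.93 ± 0.08, adjusted p = 3.62e-05). Groups did not overlap in any of the 3 genes.

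Promoter windows in RefSeq (250 bases before to 50 after a start site) were matched by symbol for 45 of the 51 genes, giving 49 windows. In 35 of these windows most of the bases after the start site were found unbroken in an annotated transcript of the gene. Positions from the start site are less sure in the others. TTTGAA on either strand lay in 67.3% of the 49 windows, against 11.1% of 11219 windows of other tested genes and 17.9% of all 32851 windows of that length. TTCGAA, which reads the same on both strands, lay in 10.2% (2.01% of other tested genes' windows, 1.56% of all windows), and either hexamer in 75.5% (12.9%, 19.2%). The 2 hexamers differ at 1 base, so the same letters cannot count as both, while a hexamer and ATTGG can share an end base. CCAAT on either strand lay in 77.6% of the 49 windows (37.8% of other tested genes' windows, 37.4% of all windows), and windows with both a hexamer and CCAAT made up 63.3% (5.16%, 7.52%). Windows of the other mitosis genes held a hexamer in 51.0% and those of S phase genes in 17.2%, while CCAAT was in 60.2% and 60.3%.

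By position, the hexamer was found most often close to the start site that RefSeq gives. Bases -40 to -10, -10 to 20 and 20 to 50 held one in 20.4%, 28.6% and 14.3% of the 49 windows, against 1.07%, 1.03% and 0.838% of other tested genes' windows. Overlapping windows of the same gene, as in Ect2 and Psrc1, count the same hexamer more than once, in different bins. Of 35 genes with a hexamer in a window, 33 fell, with a median log2 fold change of -0.38. Of 10 without, 9 fell, with a median of -0.33. For CCAAT, 32 of 35 genes with it fell (median -0.36) and all 10 without it (median -0.39). These counts stand beside 47 of 51 for the whole list and 14.6% of all genes tested. Genes with and without a motif thus fell about as often as the list, and a difference between them was not tested. The match of letters is a description and shows no binding.

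**Figure D4:**
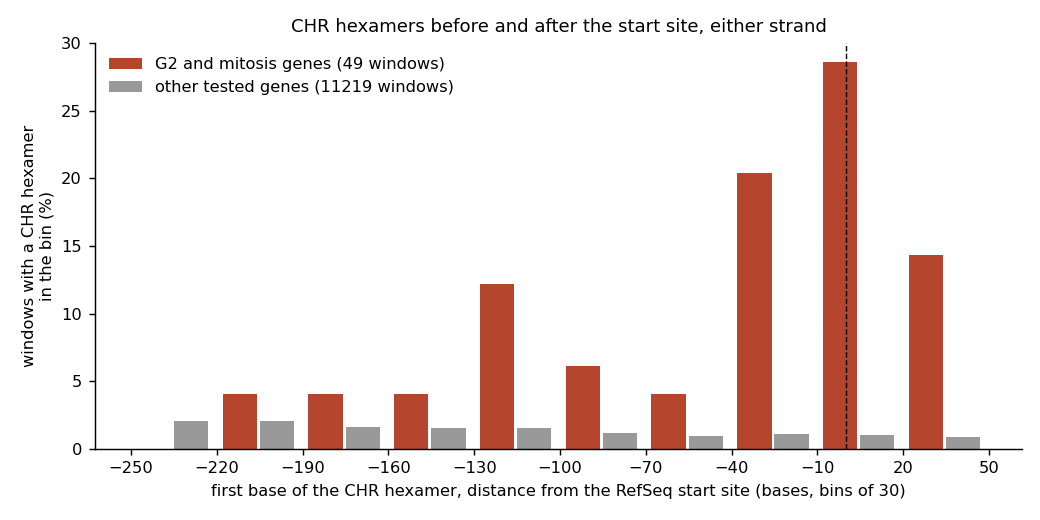
Percent of promoter windows with a first base of TTTGAA or TTCGAA, on either strand, in each 30-base bin of distance from the start site (dashed line), for the 49 windows of G2 and mitosis genes in red and the 11219 windows of other tested genes in grey. The bin from -10 to 20 holds a hexamer in 28.6% of the 49 windows and in 1.03% of the other windows.

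Markers of the cell types in the tissue were read beside the cell cycle genes. For every marker list, the shares over all genes tested were 14.6% that fell and 13.8% that rose. Of 14 radial glia markers 5 fell and 4 rose (median 0.01), and their summed level was 1633 to 2014 RPKM in null and 1649 to 1744 RPKM in wild-type libraries. Vim, an intermediate filament of radial glia, rose by 0.27 on the log2 scale, while Nes was 169.8 ± 6.53 RPKM in null and 150.2 ± 13.8 RPKM in wild type and did not pass. Fabp7 was 590 ± 126 RPKM in null and 478 ± 28.9 RPKM in wild type and did not pass either. Changes within the list ran from -0.74 for Sox2 (105 ± 9.35 RPKM in null, 175 ± 2.42 RPKM in wild type) to 0.84 for Pax6 (39.2 ± 4.65 and 21.8 ± 4.62 RPKM). Of 15 tested markers of neurons of any type 9 rose and 2 fell (median 0.38), with a sum of 1411 to 1694 RPKM in null and 1246 to 1430 RPKM in wild-type libraries. Tubb3, the neuronal tubulin, was 588 ± 54.99 RPKM in null and 553 ± 28.5 RPKM in wild type and did not pass. Stmn2 rose by 0.32 on the log2 scale, and Stmn3 did not pass. The 2 that fell were Nefm (-0.89) and Nefl (-0.83), and the largest rise was that of Rbfox3 (1.18).

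**Figure D5:**
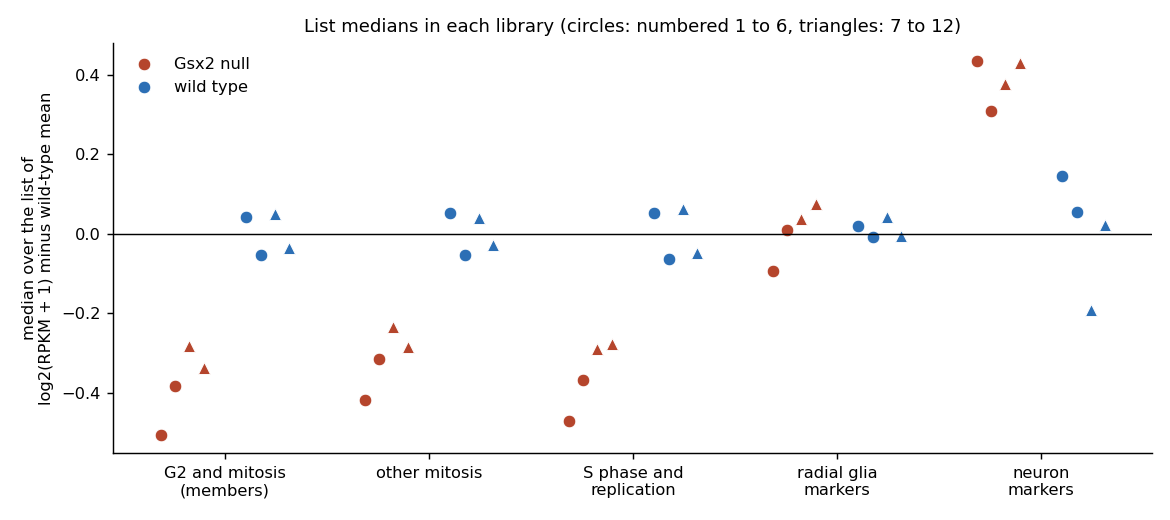
Median over each gene list of log2(RPKM + 1) minus the wild-type mean, 1 point per library, null left in red and wild type right in blue, with circles for libraries numbered 1 to 6 and triangles for 7 to 12. The 4 null libraries lie below the 4 wild-type libraries for G2 and mitosis, other mitosis and S phase genes, overlap them for radial glia markers, and lie above them for neuron markers (0.31 to 0.43 in null, -0.19 to 0.15 in wild type).

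Of 7 markers of subpallial intermediate progenitors 4 fell, led by Dlx1 and Dlx2, and the sum was 192 to 259.9 RPKM in null and 524 to 641 RPKM in wild-type libraries. Of 7 markers of pallial intermediate progenitors 6 rose (median 1.90), with a sum of 312 to 359 RPKM in null and 101 to 152 RPKM in wild-type libraries. Of 9 endothelial markers 4 fell (sum 27.3 to 35.9 RPKM in null, 37.9 to 41.5 RPKM in wild type). Of 3 tested pericyte markers 1 fell (sum over 5 listed 8.02 to 12.1 RPKM in null, 9.26 to 11.997 RPKM in wild type). None of 5 tested microglial, 7 erythroid and 3 meningeal markers passed (limma; none at an unadjusted p under 0.05 or in limma voom). Their sums were 9.27 to 13.5, 1253 to 1811 and 3.39 to 10.7 RPKM in null, and 9.09 to 11.4, 1307 to 2292 and 3.32 to 4.14 RPKM in wild-type libraries. No marker of these lists in the table was at 0 in every library. The part of these cell types in the lower G2 and mitosis RNAs was not tested.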

How the data were processed

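Per the labels' protocols, polyadenylated RNA was made into stranded libraries and sequenced with single-end reads. STAR, featureCounts, edgeR and the build mm10 were used, per the submitters' processing notes; which versions, annotation and strand setting is not stated. The deposited table of the authors holds RPKM per library and the authors' log2 fold change, average log2 CPM, p-value and FDR per gene. Their log2 fold change is positive where null is higher, since the means of 1782 genes with an absolute value over 0.5 had the same sign in 100%. Column names gave the genotype (WT, or Germline, read as null from the series title) and a number in no label, so columns were assigned to genotypes and not to samples; 0 columns were left out.

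The genotypes were compared with limma 3.58.1 (R 4.3.3) on log2(RPKM + 1), which understates changes of low genes, with an intensity trend, two-sided, and Benjamini-Hochberg adjustment over 11395 genes with a mean of at least 1 RPKM in either genotype (1448 were not tested); the threshold was an adjusted p of 0.05. Every adjusted p is from limma. On simulated data the fit recovered 75% of genes given a log2 change of 0.4 (median estimate 0.36) and 100% of those given 1.0. The simulation gave every gene the same spread between libraries beyond read sampling, and no difference between sets of libraries. It changed far fewer genes than were called in the real libraries, and none of low level. The shares recovered therefore need not hold for the real libraries. It made 10 false calls among 11290 genes. Smaller changes were not simulated. RPKM values gave whole reads for 100% of genes (within 0.01 of a read; a common factor was restored in 52 genes), and these set the depth and a limma voom alternative. Promoters came from RefSeq (GRCm38.p6), gene models from GENCODE, and shared sequence from blastn 2.17.0 (at least 51 bases at 98% identity). Alternatives were other pseudocounts, filters, scalings and variance settings, limma voom, the authors' table, leaving out each library, and the library numbers. Values in every library are given for the highest, most lowered and least lowered gene of each role, every gene that did not pass, and Cdk1, Ccnb1, Plk1, Top2a and Mki67. From other cell cycle lists up to 3 genes by adjusted p in each direction are named. Up to 3 genes by level are named from the markers of radial glia, neurons and subpallial intermediate progenitors. Some of these genes have values in every library and others only a mean, a fold change or a direction. The remaining marker lists are given by counts and sums. Other genes are named by their fold change to account for the whole list. Ccnb2, Eomes, Sox2, Pax6, Nefm, Nefl, Rbfox3 and the promoters to print were chosen after values were seen. The genes, the lists and the split by library number were chosen with earlier results of these data known.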

Additional observations from a re-analysis of the deposited data

Results flagged for a closer look

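In each of the 51 G2 and mitosis genes the 4 libraries of each genotype were checked for 1 that lay far from the other 3 (a gap to its nearest neighbour, as a share of the range, above Dixon's 95% critical value). Of 102 such groups 3 had one, and chance gives about 1 in 20. Hjurp, the CENP-A chaperone, was 22.9 RPKM in null library 6, where the other null libraries were 21.3 to 21.4 RPKM (gap 0.953 of the range). Ccnb2, cyclin B2, was 49.8 RPKM in wild-type library 1, where the other wild-type libraries were 41.6 to 42.99 RPKM (0.831). Gtse1 was 18.5 RPKM in wild-type library 7, where the other wild-type libraries were 17.1 to 17.3 RPKM (0.893).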

How the results depend on the processing

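Across 21 settings the 51 genes gave 1070 values: 1045 kept their direction and side of the threshold, 23 in 11 genes lost a call, 1 gained one (Cks1b without library 2) and 1 changed sign. That was Hmgb2, which never passed, with log2 fold changes from -0.23 without library 11 to 0.089 without library 5. Of the 51 genes, 46 fell with no intensity trend (Ccnb2 lost, adjusted p = 0.0551) and 47 under the other pseudocounts, filters and scalings, the robust fit, limma voom, library numbers as a term and the authors' table; the median ran from -0.33 (pseudocount of 5) to -0.38. A minimum mean of 5 RPKM left out Cks2. Leaving out each library gave 44 to 48 genes that fell, 0 that rose, medians of -0.42 to -0.34 and 2471 to 2954 genes called in all (3242 with all libraries); 44 genes were called every time. Libraries 1 to 6 alone gave 1949 genes called in all; there Cenpf, Ccnb2, Hjurp, Cdca3, Cenpe, G2e3, Gas2l3 and Cenpa lost their calls, and in libraries 7 to 12 alone Ccnb2 and Ckap5 did. No paired analysis was possible because the column numbers are in no label, so no column carries a replicate number. Depth limits Cks2 most.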
